A study of Mus musculus with 11 samples.

Results

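Reporter-positive duodenal cells of GluVenus mice were set against reporter-negative cells of the same strain. In these mice a yellow fluorescent protein, Venus, is driven by the promoter of the proglucagon gene Gcg, so that the sort follows a hormone gene of the gut lining. The comparison takes 5 of the 11 libraries of the series, 3 of Glu positive and 2 of Glu negative cells, and was run over all genes with enough counts. The tissue was duodenal epithelium from mice kept on standard chow, digested to single cells and sorted by flow cytometry, with about as many negative as positive cells collected. Both groups carry the transgene, and the labels name no treatment. The other 6 libraries come from Neurod1-cre-eYFP mice and serve here to estimate the spread. The labels used here give no age or sex, and the labels do not say whether the library numbers are separate animals, so the p-values rest on a spread between libraries that may be technical.

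Enteroendocrine cells are scattered hormone-producing cells of the intestinal epithelium. Each senses nutrients through surface receptors and transporters, becomes electrically active and releases peptide granules by calcium-triggered exocytosis. Proglucagon is cut by prohormone convertases to glucagon-like peptides, which act on insulin release, gut growth and appetite, and the cells that make it in the duodenum are known to make other gut hormones as well.

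The Glu libraries held 2695065 to 5696425 counts, and 14332 genes were tested. Values are counts scaled to library size (CPM) by the trimmed mean of M values (TMM), always in the order Glu_positive_4665, Glu_positive_5160 and Glu_positive_5254, then Glu_negative_4665 and Glu_negative_5254. Changes are log2 fold changes, positive over negative, ± SE, and a gene passed where the quasi-likelihood test of edgeR gave a Benjamini-Hochberg adjusted p under 0.05. In that test 605 genes (4.22% of those tested) rose and 346 (2.41%) fell. Of these, 598 (4.17%) and 330 (2.30%) also had all 3 positive libraries on one side of both negative ones, a separation that 15.8% and 16.5% of all tested genes showed in the upward and downward direction. Only genes that passed and separated are named as higher or lower, so the separation of a named gene is set by this rule. Counts of called members of each list below are to be read beside these shares of all tested genes. With 2 negative libraries the counts rest on each. They were 108 and 79 without Glu_negative_4665, and 159 and 138 without Glu_negative_5254, where the lone negative library is taken to vary as the other groups do. The fit to the 5 Glu libraries alone called 195 and 145. Scaling by library totals moved the median change over all genes from 0.12 to -0.19, and the calls to 360 higher and 489 lower. Higher genes thus made up 63.6% of calls, against 49.0% under upper quartile scaling and 42.4% under library totals. Across the 14332 genes the positive libraries were less alike than the negative ones. Pearson r of log2 CPM was 0.79 to 0.84 between positives and 0.89 between the negatives, where genes are not independent replicates. Glu_positive_5254 stood apart in holding more Cd4 than any other Glu library (923 CPM against at most 121 CPM), and genes whose call ends without it are marked as such. Without 1 library the fold moved by over 1.5 times for 14 to 30 of the 146 named genes that passed, most often without Glu_positive_5254.

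All 4 genes taken as marks of the sorted cells were high in every positive library. The gene behind the reporter, Gcg, checks the labels and stood at 25873, 20199.5 and 60981 CPM in the positive libraries and 2272 and 3166 CPM in the negative ones. Cck, which encodes cholecystokinin, the hormone that empties the gall bladder, stood at 32111, 17163 and 31875 CPM, against 767 and 995 CPM. Secretogranin Scg2, a granule protein, stood at 2783, 2130.0 and 1982 CPM, against 94.4 and 130.2 CPM, and the adhesion G protein-coupled receptor Adgrg4, an endocrine marker of the gut, at 2714, 3004 and 6297 CPM, against 102 and 149.9 CPM. Every positive library lay above both negatives for each of the 4, which the rule asks of any gene named as higher. The lowest positive value was 20199.5 CPM for Gcg and 17163 CPM for Cck, both in Glu_positive_5160. The log2 fold changes were 3.71 ± 0.50 for Gcg (adjusted p = 0.000171), 4.94 ± 0.52 for Cck (3.57e-05), 4.36 ± 0.39 for Scg2 (1.70e-05) and 4.99 ± 0.52 for Adgrg4 (3.57e-05). The negative libraries still held Gcg at 2272 and 3166 CPM. In bulk RNA fewer cells of a type and less RNA per cell cannot be told apart, here and in all results that follow.

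Ghrl, Sct, Nts, Pyy, Gip and other hormone genes rose beside Gcg. Of 15 genes of the list, all tested, 9 rose and none fell (6 without Glu_negative_4665 and 5 without Glu_negative_5254), with a median log2 fold change of 2.94 beside 0.12 over all genes tested. Ghrelin, Ghrl, the appetite hormone usually placed in the stomach and upper gut, stood at 422, 187 and 485 CPM in the positive libraries and 33.1 and 11.3 CPM in the negative ones, a change of 4.03 ± 0.53. Secretin, Sct, which drives bicarbonate release, stood at 1339, 436 and 1033 CPM, against 43.6 and 58.8 CPM (4.19 ± 0.52). Neurotensin, Nts, a hormone that aids fat uptake, stood at 1273, 469 and 576 CPM, against 64.7 and 103 CPM (3.20 ± 0.51). These 3 genes rose in every positive library by a wide margin over both negatives. Peptide YY, Pyy, known from the lower gut, stood at 240.0, 356 and 678 CPM, against 90.2 and 125 CPM, with the change 1.98 ± 0.44 the smallest among the hormones that rose. Tph1, the enzyme that starts serotonin synthesis, was low in level but separated, at 57.4, 31.00 and 13.96 CPM, against 5.88 and 2.87 CPM (2.94 ± 0.57). The incretin gene Gip was uneven, at 3996, 686 and 445 CPM, against 151 and 128 CPM (3.61 ± 0.73). Glu_positive_4665 held several times more Gip than the other positives, and without it the change was 2.02. Ucn3, the gene of urocortin 3, showed the same unevenness at 48.7, 1.72 and 2.73 CPM, against 0.280 and 0.663 CPM (5.29 ± 1.22), and did not pass without Glu_positive_4665 (2.27, adjusted p = 0.0652 in edgeR). The remaining list members overlapped between the groups and did not pass. Somatostatin, Sst, the inhibitory hormone of D cells, stood at 87.7, 177 and 147 CPM, against 259 and 98.6 CPM. Insl5, a hormone of the colon, stood at 41.2, 119.9 and 121 CPM, against 48.6 and 60.1 CPM. The other 4 were low in every library: Tac1 between 0.884 and 13.3 CPM, Penk between 1.33 and 18.8, Nmb between 0 and 9.40, and Iapp between 0.142 and 1.03 CPM. Their changes were -0.39 ± 0.45 for Sst, 0.79 ± 0.55 for Insl5, -1.35 ± 0.72 for Tac1, 0.71 ± 0.87 for Penk, 1.79 ± 1.47 for Nmb and -1.02 ± 0.79 for Iapp. Without Glu_negative_4665 the sign of Sst (0.46) and Tac1 (1.66) turned, as did that of Penk (-0.09) without Glu_negative_5254, and none of these values passed. In the fit to the Glu libraries alone Pyy and Tph1 did not pass, and Ucn3 did not reach its filter on low counts. Of the hormones that rose, Gip (3.81), Pyy (1.75) and Ucn3 (4.81) without Glu_negative_4665 and Gip (3.57), Pyy (2.22), Ucn3 (5.97) and Tph1 (2.58) without Glu_negative_5254 did not pass.

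**Figure D1:**
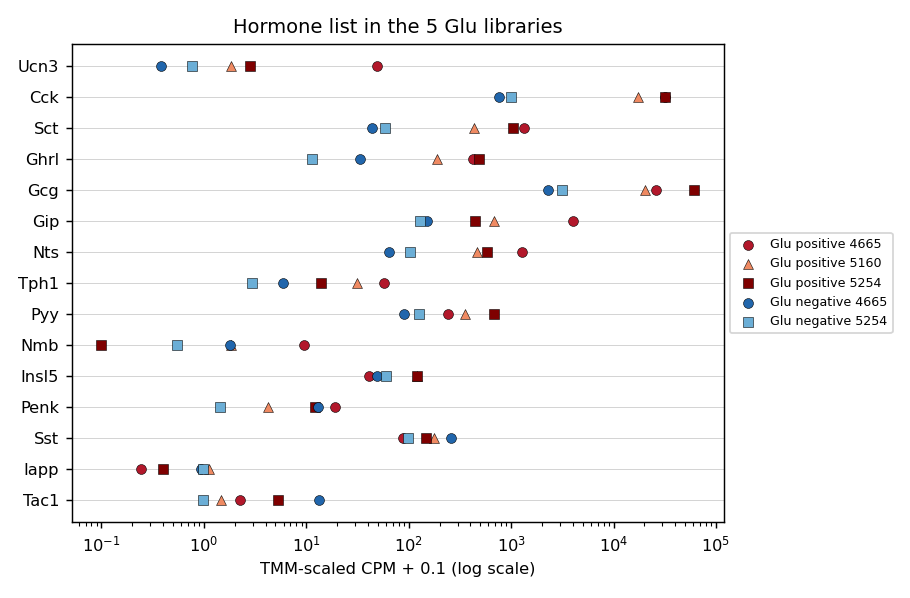
TMM-scaled CPM plus 0.1 on a log axis for the 15 genes of the hormone list, 1 point per library, ordered by log2 fold change. The 3 positive libraries (reds) lie to the right of both negative libraries (blues) for the 9 genes that rose, and Sst, Tac1, Iapp, Insl5, Penk and Nmb overlap.

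The make-up of the hormone signal differed among the positive libraries. To compare levels between genes, CPM was divided by the length of each gene's exons and given as a share of the sum over the 14 peptide genes of the list, Tph1 left out. Gcg took 33.4%, 45.3% and 58.4% of that per-length signal in the positives and 49.6% and 57.7% in the negatives. Cck took 47.5%, 44.02% and 34.96% in the positives and 19.2% and 20.8% in the negatives. Cck was thus above Gcg in Glu_positive_4665 and below it in Glu_positive_5254, and the order of these top 2 genes is not fixed across libraries. The Cck share was higher in each positive than in either negative library. Gip took 11.2%, 3.34% and 0.928% in the positives, and Sct 4.004%, 2.26% and 2.29%. The share of somatostatin was 11.7% and 3.72% in the negatives and 0.235%, 0.822% and 0.291% in the positives, with no overlap. A share falls when other members of the sum rise, and the level of Sst itself overlapped. These shares are a description with no test.

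**Figure D2:**
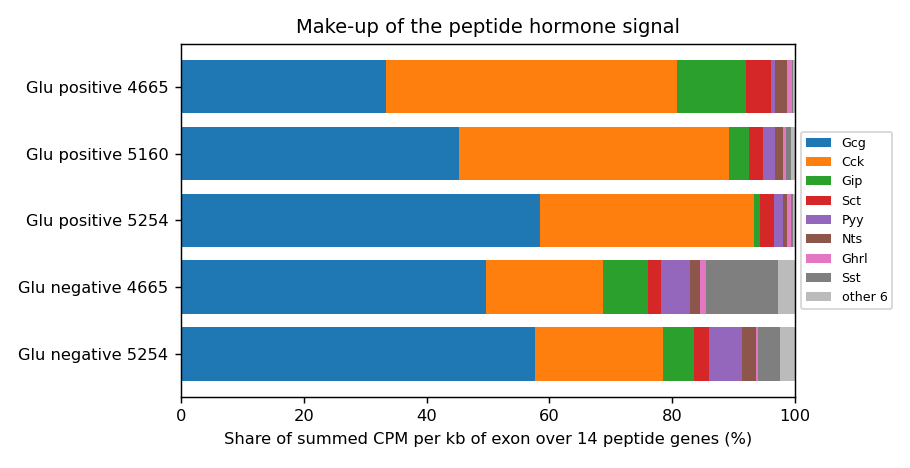
Horizontal bars give, for each of the 5 Glu libraries, the percent of the summed CPM per kilobase of exon over 14 peptide genes that each gene takes. Gcg and Cck fill most of each bar, Gip is widest in Glu_positive_4665 and Sst is widest in the negative libraries.

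Nearly all granule protein genes rose, where 4.22% of all tested genes rose and 15.8% separated upward. Of 12 genes for granins and other granule proteins 11 rose and none fell (7 without Glu_negative_4665 and 8 without Glu_negative_5254), with a median of 3.60, and all 12 separated. Chromogranin B, Chgb, which helps form granules, stood at 22293, 6019 and 9033 CPM in the positive libraries and 703 and 834 CPM in the negative ones, a change of 4.02 ± 0.54. The granule membrane protein Ptprn stood at 28.9, 44.4 and 146 CPM, against 3.08 and 5.53 CPM (4.09 ± 0.69), and was highest in Glu_positive_5254. Vgf, a neuroendocrine peptide precursor, was 18.3-fold higher in the positives (95% exact counting interval 5.96 to 90.9), on 3 counts in the negatives together. Others that rose were Scg5 (3.65), Ptprn2 (3.61), Scg3 (3.60), Resp18 (3.26), Syt13 (3.03), Pcsk1n (2.67) and Chga (2.58), among them chromogranin A, Chga. Of 10 prohormone-processing genes, 5 rose and 1 fell, with a median of 1.03. Pcsk1, the convertase that releases glucagon-like peptides from proglucagon, stood at 252, 168 and 316 CPM, against 16.9 and 25.6 CPM (3.53 ± 0.43). Carboxypeptidase E, Cpe, which trims the cut peptides, stood at 2336, 1339 and 2301 CPM, against 139 and 147 CPM (3.80 ± 0.39). Pam, the amidating enzyme (2.81 ± 0.39), Qpct (2.91 ± 0.82) and Cpd (1.19 ± 0.33) rose too. The convertase gene Pcsk6 fell, from 3.22 and 11.3 CPM in the negatives to 0.285, 1.03 and 0 CPM (-4.05 ± 1.10). The threshold was missed by Pcsk1n (1.58) and Pcsk6 (-3.77) without Glu_positive_4665, Qpct (2.77) without Glu_positive_5160 and Qpct (2.61) and Pcsk6 (-3.56) without Glu_positive_5254. With 1 negative library fewer it was missed by Ptprn (3.69), Resp18 (3.20), Vgf (7.26), Pcsk1n (2.71), Qpct (2.43), Cpd (1.10) and Pcsk6 (-4.68) without Glu_negative_4665 and Resp18 (3.42), Vgf (3.50), Pcsk1n (2.75), Qpct (3.48), Cpd (1.30) and Pcsk6 (-2.89) without Glu_negative_5254.

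The promoters of hormone, granule and convertase genes that rose together are shown here because these genes carry the main contrast of the sort. RefSeq sequence of GRCm38.p6 was read for the 250 bases before each gene's start in that source. Both strands were searched for TATAAA and for the E-box CAGATG that factors of the NeuroD family can bind. TGACGTCA, the full cyclic AMP response element, was searched for as well. Promoters were found for 448 of the 598 genes that rose and separated, and a gene with several starts counts when any of them holds the letters. CAGATG or its reverse complement was in 10.9% of those genes and in 12.2% of all 10600 tested genes with a promoter. TGACGTCA was in 3.35% and 3.05%, and TATAAA in 12.5% and 8.75%. Of 206 genes that fell and separated, 18.45% held CAGATG, 2.91% TGACGTCA and 15.53% TATAAA, so the share with TATAAA was not highest in the genes that rose. Among the hormone genes that rose, 4 of 9 held CAGATG and none held TGACGTCA. Among the granule genes that rose, 2 of 9 held TGACGTCA and none held CAGATG. A match is a description of these letters and no evidence of binding. Capitals mark matches to any of the 3 motifs on either strand, which do not overlap here, and each line runs 5′ to 3′ on the gene's own strand. The first 3 are Gcg (chr2:62483654-62483903, minus strand), Cck (chr9:121495695-121495944, minus strand) and Sct (chr7:141279134-141279383, minus strand), which hold CAGATG. The other 3 are Scg2 (chr1:79440027-79440276, minus strand), Chgb (chr2:132781392-132781641, plus strand) and Pcsk1 (chr13:75089607-75089856, plus strand), which hold TGACGTCA. Gene bounds used elsewhere here, from GENCODE vM21, differ for these 3. By them the Chgb stretch lies inside its gene, and those of Scg2 and Pcsk1 overlap their genes in part.
Gcg: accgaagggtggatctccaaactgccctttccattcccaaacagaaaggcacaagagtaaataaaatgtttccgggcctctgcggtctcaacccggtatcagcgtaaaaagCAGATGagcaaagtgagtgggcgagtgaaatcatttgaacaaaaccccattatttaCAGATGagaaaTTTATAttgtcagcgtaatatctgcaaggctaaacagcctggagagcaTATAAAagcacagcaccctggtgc
Cck: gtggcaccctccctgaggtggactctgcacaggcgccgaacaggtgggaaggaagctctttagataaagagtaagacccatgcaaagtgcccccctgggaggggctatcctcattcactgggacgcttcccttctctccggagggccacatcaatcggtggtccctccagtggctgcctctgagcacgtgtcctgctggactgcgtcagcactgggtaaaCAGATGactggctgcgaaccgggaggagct
Sct: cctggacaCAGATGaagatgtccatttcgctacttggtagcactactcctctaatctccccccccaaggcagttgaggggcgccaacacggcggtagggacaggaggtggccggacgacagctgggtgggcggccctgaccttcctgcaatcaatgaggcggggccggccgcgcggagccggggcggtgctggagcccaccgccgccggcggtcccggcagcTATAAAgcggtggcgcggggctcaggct
Scg2: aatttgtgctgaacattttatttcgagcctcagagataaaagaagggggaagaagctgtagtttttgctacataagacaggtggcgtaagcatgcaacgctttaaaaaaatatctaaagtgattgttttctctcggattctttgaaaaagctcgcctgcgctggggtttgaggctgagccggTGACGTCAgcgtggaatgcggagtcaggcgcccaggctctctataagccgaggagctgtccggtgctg
Chgb: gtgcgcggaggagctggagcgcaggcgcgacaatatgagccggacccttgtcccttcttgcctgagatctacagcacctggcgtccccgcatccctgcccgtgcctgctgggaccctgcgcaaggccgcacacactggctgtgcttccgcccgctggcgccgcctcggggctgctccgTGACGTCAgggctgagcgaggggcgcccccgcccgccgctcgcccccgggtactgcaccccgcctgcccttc
Pcsk1: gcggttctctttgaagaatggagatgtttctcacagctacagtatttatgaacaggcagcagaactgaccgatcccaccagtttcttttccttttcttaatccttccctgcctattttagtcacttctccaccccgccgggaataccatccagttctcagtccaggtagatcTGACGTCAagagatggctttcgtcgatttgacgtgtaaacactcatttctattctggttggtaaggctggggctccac

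The machinery of regulated exocytosis rose in part. Of 23 genes 11 rose and none fell (4 without Glu_negative_4665 and 6 without Glu_negative_5254), with a median of 2.35. Snap25, a SNARE protein of the fusion complex, stood at 208, 136 and 380.2 CPM in the positive libraries and 10.9 and 15.7 CPM in the negative ones, a change of 4.18 ± 0.51. Complexin Cplx2, which clamps that complex, stood at 664, 301 and 627 CPM, against 35.4 and 45.8 CPM (3.71 ± 0.43). The vesicle GTPase Rab3c stood at 53.98, 24.8 and 193 CPM, against 7.98 and 3.98 CPM (3.89 ± 0.70). Glu_positive_5160 was the lowest positive library for all 3 of these genes. Others that rose were Syt14 (4.21), Cadps (3.58), Cplx1 (3.49), Rims2 (3.47), Syt7 (2.63), Unc13a (2.48) and Vamp2 (1.84). The values that missed the threshold were Syt14 (3.04), Cplx1 (2.41) and Unc13a (1.46) without Glu_positive_5160. With 1 negative library fewer they were Syt14 (3.74), Vamp2 (2.15), Syt7 (2.58), Cplx1 (3.66), Unc13a (2.44) and Rims2 (3.13) without Glu_negative_4665 and Syt14 (4.76), Vamp2 (1.58), Rab3c (3.48), Cplx1 (3.33) and Unc13a (2.47) without Glu_negative_5254.

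Neurod1, Etv1, Fev and Runx1t1 led the endocrine transcription factors that rose. Of 25 factors 13 rose and none fell (9 without Glu_negative_4665 and 12 without Glu_negative_5254), with a median of 2.85. Neurod1, a factor of late endocrine differentiation, stood at 394, 253 and 737 CPM in the positive libraries and 15.1 and 29.2 CPM in the negative ones, a change of 4.38 ± 0.51. Etv1, an ETS-family factor, stood at 517, 549.8 and 1264 CPM, against 40.5 and 50.9 CPM (4.09 ± 0.45). Fev, a factor of serotonin-producing neurons, stood at 198, 126 and 721 CPM, against 20.03 and 18.1 CPM (4.19 ± 0.62), and the corepressor Runx1t1 at 204, 337 and 621 CPM, against 20.03 and 24.8 CPM (4.11 ± 0.52). Glu_positive_5254 was the highest library for each of these 4 genes. Others that rose were Insm1 (3.999), Pax6 (3.99), Rfx6 (3.94), Isl1 (3.35), St18 (3.22), Myt1 (2.85), Rfx3 (2.80) and Nkx2-2 (2.69). Pax6 among them is known from cells that make proglucagon in gut and islet. Neurog3, the factor that starts the endocrine fate and is on only briefly, did not pass and is named after its values were seen. It stood at 0, 1.03 and 0.303 CPM, against 9.66 and 0.663 CPM. Neurod1, Etv1, Fev and Runx1t1 passed without any 1 Glu library, while Myt1 (3.12), Nkx2-2 (2.75) and Rfx3 (2.79) without Glu_negative_4665 and Myt1 (2.68) without Glu_negative_5254 did not.

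Of the receptors for nutrients and bile acids, Gpr119, Ffar1 and Casr rose, where 4.22% of all tested genes did. Of 11 tested, 3 rose and none fell (0 without Glu_negative_4665 and 1 without Glu_negative_5254), with a median of 2.38. Gpr119, a receptor for fatty acid amides and monoglycerides, was the most even, at 66.2, 97.8 and 85.3 CPM in the positive libraries and 5.88 and 8.84 CPM in the negative ones, a change of 3.50 ± 0.60. Ffar1, the receptor for long-chain fatty acids, stood at 11.4, 19.98 and 216 CPM, against 2.80 and 2.21 CPM (5.01 ± 1.22), with most of its signal in Glu_positive_5254. The calcium-sensing receptor Casr, which also reads amino acids, stood at 50.7, 7.23 and 3.94 CPM, against 1.54 and 0.663 CPM (4.16 ± 0.94), with most of it in Glu_positive_4665. Without Glu_positive_4665 the change of Casr was 2.25, which still passed. Casr lost its call in limma voom and in the fit to the Glu libraries alone, and Ffar1 lost it in limma voom. The threshold was missed by Ffar1 (2.62) without Glu_positive_5254. It was also missed by Ffar1 (5.16), Casr (4.99) and Gpr119 (3.22) without Glu_negative_4665 and Ffar1 (4.82) and Casr (3.82) without Glu_negative_5254.

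Of the receptors for peptides and transmitters, Galr1, Cnr1, Sstr5, Sstr3 and Avpr1b rose. Of 17 tested, 5 rose and none fell (none without either negative library), with a median of 2.12. The galanin receptor Galr1, an inhibitory receptor, stood at 58.1, 7.23 and 73.7 CPM in the positive libraries and 2.52 and 1.99 CPM in the negative ones, a change of 4.34 ± 0.85. The cannabinoid receptor Cnr1 stood at 58.3, 16.5 and 7.58 CPM, against 1.68 and 3.10 CPM (3.55 ± 0.77), and the somatostatin receptor Sstr5 at 17.7, 4.82 and 13.7 CPM, against 1.40 and 1.77 CPM (2.92 ± 0.75). Galr1 was low in Glu_positive_5160 alone, whereas Cnr1 was high in Glu_positive_4665 alone. Sstr3, another somatostatin receptor, was 96.3-fold higher in the positives (95% exact counting interval 16.9 to 3837), on 1 count in the negatives together. Its counts were 56 and 52 in Glu_positive_4665 and Glu_positive_5160, but 1 in Glu_positive_5254 and 1 in Glu_negative_4665, so the separation there rests on single counts. In addition the vasopressin receptor Avpr1b rose by 2.70 ± 0.75. Without 1 negative library the changes of Galr1 (4.55 and 4.21), Cnr1 (3.21 and 4.08), Sstr5 (2.79 and 3.12), Sstr3 (8.03 and 5.67) and Avpr1b (2.50 and 2.88) missed the threshold, the first value of each being without Glu_negative_4665. Avpr1b was at 1.97 and did not pass without Glu_positive_5254, and without Glu_positive_4665 Cnr1 was at 2.35. Of 18 adhesion and orphan receptors 3 rose, beside 4.22% of all tested genes, with a median of 0.55. They were Adgrg4, described above, and the orphan receptor Gpr22, at 42.9, 35.1 and 46.1 CPM, against 5.46 and 5.09 CPM (2.96 ± 0.67). Gprc5c was the third, at 41.4, 57.2 and 14.3 CPM, against 8.68 and 4.86 CPM (2.46 ± 0.69). Gpr22 was even across the positives. Gpr22 and Gprc5c missed the threshold without Glu_negative_4665 (3.03 and 2.95) and without Glu_negative_5254 (2.92 and 2.12), and Gprc5c did so without Glu_positive_4665 (2.39) or Glu_positive_5160 (2.08).

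Scn9a, Scn8a and Trpc1 were among the channel genes that rose, where 4.22% of all tested genes did. Of 20 tested genes for sodium, calcium and sensory channels 10 rose, 9 of them separated, and 1 fell (3 without Glu_negative_4665 and 4 without Glu_negative_5254 rose), with a median of 2.77. The voltage-gated sodium channel Scn9a stood at 2.56, 15.2 and 108 CPM in the positive libraries and 0.560 and 1.55 CPM in the negative ones, a change of 5.32 ± 1.30, and Scn8a at 3.42, 6.55 and 39.7 CPM, against 0.700 and 1.33 CPM (4.01 ± 1.06). The cation channel Trpc1 stood at 13.8, 17.2 and 76.8 CPM, against 1.68 and 2.43 CPM (4.12 ± 0.93). Each of these 3 was highest in Glu_positive_5254, without which Scn9a was at 3.06, Scn8a at 2.28 and Trpc1 at 2.91, and none of them passed. Scn9a and Scn8a also lost their calls in limma voom, and Scn8a in the fit to the Glu libraries alone. The calcium channel subunits Cacna1c (3.78 ± 0.75), Cacna2d1 (3.76 ± 0.48) and Cacna1a (3.45 ± 0.41) also rose, and Scn3a (3.46), Trpa1 (2.82) and Cacnb3 (2.73) rose with them. Cacna1e, the R-type calcium channel, fell, at 0.570, 1.72 and 2.12 CPM, against 37.1 and 12.4 CPM (-4.12 ± 0.82). Of 20 tested genes for potassium channels and glucose sensing 8 rose and none fell (3 without Glu_negative_4665 and 3 without Glu_negative_5254), with a median of 2.32. Kcnb2, a delayed rectifier, stood at 79.6, 212 and 279 CPM, against 6.72 and 12.6 CPM (4.30 ± 0.57), and Kcnj6, a channel opened by G proteins, at 13.5, 19.6 and 5.76 CPM, against 0.420 and 0.663 CPM (4.54 ± 0.96). The pore Kcnj11 of the ATP-sensitive potassium channel was 91.9-fold higher in the positives (95% exact counting interval 16.1 to 3663), on 1 count in the negatives, and its partner Abcc8 rose by 3.18 ± 0.42. The leak channel Kcnk16 was 90.1-fold higher in the positives (95% exact counting interval 24.6 to 749), on 2 counts in the negatives. It stood at 23.5, 4.48 and 7.89 CPM in the positives, with most of its counts in Glu_positive_4665. Others that rose were Kcnh6 (3.59) and Hk2 (2.06). Kcnj11 stood at 0.303 CPM in Glu_positive_5254, a single count, against 7.98 and 16.2 CPM in the other positives. Among the potassium channel genes the threshold was missed by Kcnj11 (6.16) without Glu_positive_4665 and Kcnj11 (5.33) without Glu_positive_5160. With 1 negative library fewer it was missed by Hk2 (2.31), Kcnk16 (8.56), Kcnj6 (4.23) and Kcnj11 (7.94) without Glu_negative_4665 and Hk2 (1.88), Kcnk16 (5.34), Kcnj6 (4.85) and Kcnj11 (5.57) without Glu_negative_5254. Cacnb3 (2.48), Scn8a (3.57), Trpa1 (1.99), Trpc1 (3.84), Scn3a (3.29), Scn9a (4.68) and Cacna1e (-3.11) without Glu_negative_4665 and Cacnb3 (3.05), Scn8a (4.46), Trpc1 (4.36), Cacna1c (3.28) and Scn9a (6.10) without Glu_negative_5254, of the sodium and calcium channels, missed it as well.

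Parts of the cyclic AMP and G protein pathway, which couples receptors to secretion, rose. Of 25 tested genes 10 rose and none fell (4 without Glu_negative_4665 and 4 without Glu_negative_5254), with a median of 1.28. The inhibitory G protein alpha subunit Gnai1 stood at 213, 182 and 419.6 CPM in the positive libraries and 17.4 and 20.1 CPM in the negative ones, a change of 3.86 ± 0.53. The adenylate cyclase Adcy2 stood at 69.6, 60.6 and 204 CPM, against 4.62 and 7.96 CPM (4.15 ± 0.62). Adcy1, a cyclase stimulated by calcium, stood at 17.7, 8.27 and 166 CPM, against 1.82 and 3.76 CPM (4.53 ± 1.00), and the regulator of G protein signalling Rgs17 at 31.5, 27.9 and 430.2 CPM, against 5.74 and 7.74 CPM (4.60 ± 0.98). Adcy1 and Rgs17 had most of their signal in Glu_positive_5254, without which they were at 2.27 and 2.15 and still passed. Neither held its call in DESeq2 or limma voom, and Adcy1 lost it in the fit to the Glu libraries alone. Others that rose were Gnao1 (3.77), Rgs7 (3.52), Gng4 (3.32), Rapgef4 (3.27), Gnaz (2.90) and Pde1c (2.88). Among these genes it was missed by Gnaz (1.36) without Glu_positive_5254. With 1 negative library fewer these also missed it: Pde1c (3.12), Rgs17 (4.36), Adcy1 (4.05), Rgs7 (3.16), Gnaz (3.44) and Rapgef4 (3.38) without Glu_negative_4665 and Pde1c (2.71), Rgs17 (4.78), Adcy1 (5.07), Rgs7 (3.97), Gnaz (2.49) and Rapgef4 (3.11) without Glu_negative_5254. Of 22 tested genes for neuron-like adhesion and cytoskeleton 7 rose and none fell (3 without Glu_negative_4665 and 4 without Glu_negative_5254), with a median of 1.81. The neurofilament Nefm stood at 107, 70.6 and 189.9 CPM, against 7.56 and 10.2 CPM (3.79 ± 0.50), the splicing regulator Celf3 at 162, 147 and 88.6 CPM, against 7.14 and 13.7 CPM (3.68 ± 0.47) and the cadherin Celsr3 at 38.03, 94.4 and 66.1 CPM, against 6.58 and 8.40 CPM (3.14 ± 0.61). Map1b (3.03 ± 0.41), Map2 (2.97 ± 0.51) and Kif1a (2.01 ± 0.56) rose as well, and Cntnap2, a neurexin-like adhesion protein, was 77.7-fold higher in the positives (95% exact counting interval 13.6 to 3105), on 1 count in the negatives. Cntnap2 stood at 1.71, 1.38 and 21.8 CPM in the positives, with most of its counts in Glu_positive_5254. Of the adhesion and cytoskeleton genes, the threshold was missed by Kif1a (1.42) without Glu_positive_4665 and Cntnap2 (3.83) without Glu_positive_5254. Those that missed it with 1 negative library fewer were Celsr3 (2.95), Map2 (2.71), Kif1a (1.74) and Cntnap2 (7.93) without Glu_negative_4665 and Celsr3 (3.30), Kif1a (2.42) and Cntnap2 (5.56) without Glu_negative_5254.

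**Figure D3:**
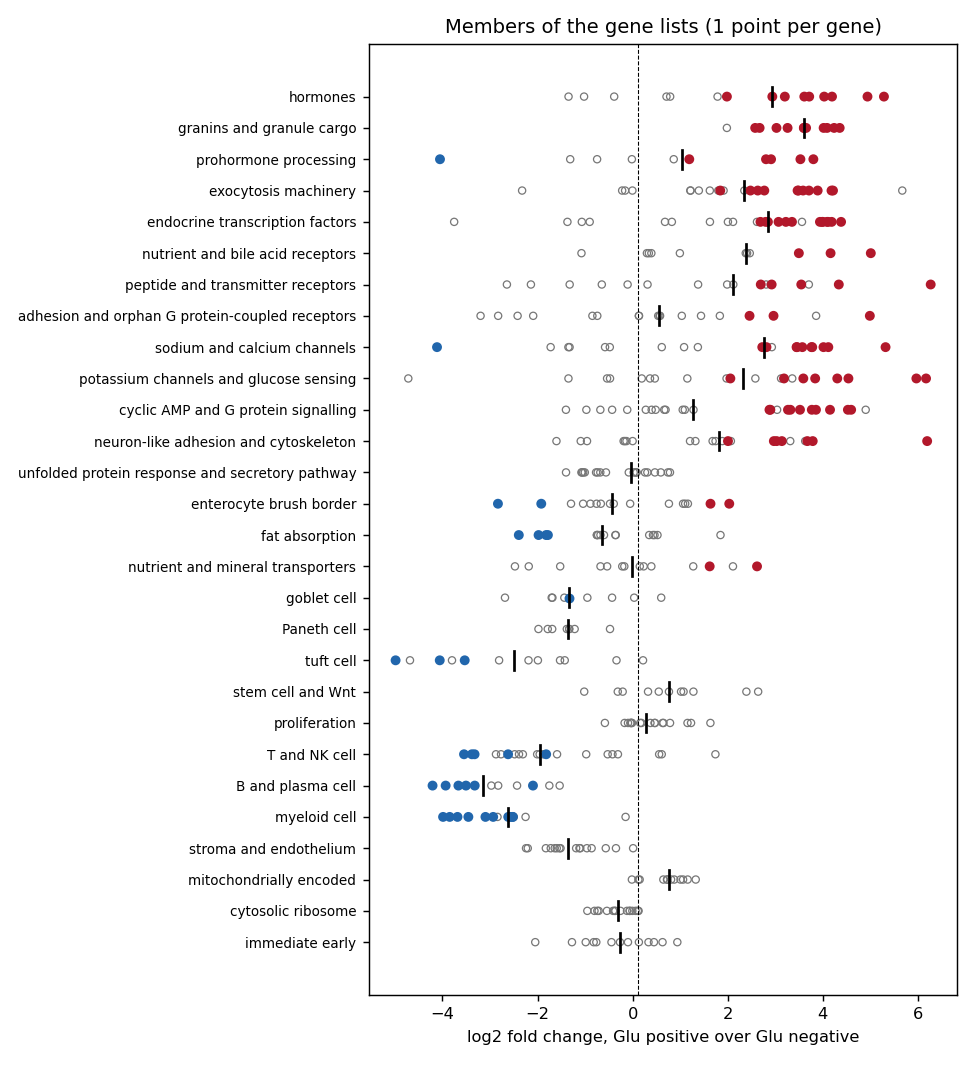
Log2 fold changes, positive over negative, for the tested members of 28 gene lists, 1 point per gene. Filled points passed (red higher, blue lower), open points did not, black bars are list medians and the dashed line is the median of all genes tested (0.12). Lists of hormone secretion lie to the right, with a median of 3.60 for granule genes, and lists of immune cells to the left, with -3.15 for B and plasma cells.

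Over genes with an average log2 CPM of at least 4 in the 11 libraries, clone names and receptor segments left out, the 10 largest rises included Pzp, Crp and Serpina1b, which encode plasma proteins. Pzp, a protease inhibitor, stood at 691, 282 and 307 CPM in the positive libraries and 8.40 and 14.4 CPM in the negative ones, a change of 5.24 ± 0.51. C-reactive protein, Crp, known as a liver product, stood at 75.9, 36.2 and 67.4 CPM, against 1.82 and 1.77 CPM (5.04 ± 0.67). Serpina1b, an alpha-1 antitrypsin gene with near-identical copies whose separate counts are uncertain, stood at 46.4, 5.86 and 118 CPM, against 1.40 and 1.55 CPM (5.24 ± 1.00). Pzp and Crp were within 3-fold across the positives, while Serpina1b was low in Glu_positive_5160. The glycosyltransferase Galnt13 stood at 39.2, 51.7 and 126 CPM, against 1.82 and 2.21 CPM (5.15 ± 0.77), and the ephrin receptor Epha7 at 39.5, 19.3 and 127 CPM, against 1.54 and 1.55 CPM (5.30 ± 0.85). The serotonin receptor Htr1d (12.5, 3.44 and 142 CPM, against 0.840 and 1.11 CPM) and the metalloproteinase Mmp24 (6.27, 11.7 and 199.9 CPM, against 1.40 and 1.99 CPM) rose by 5.73 ± 1.41 and 5.41 ± 1.22, with most of their signal in Glu_positive_5254, and without it they were at 3.04 and 2.39 and did not pass. The neurofilament gene Ina had no count in the negatives, against 7, 29 and 1 counts in the positives (0.997, 9.99 and 0.303 CPM). The low end of its 95% exact counting interval was 8.4-fold, and the ratio to a floor of 3 counts over the group was 10.9. Most counts of Ina were in Glu_positive_5160, and its separation in Glu_positive_5254 rests on a single count. Its average log2 CPM of 4.95 came mainly from the Neurod1-cre-eYFP libraries, through which it passed the level filter. Missing the threshold were Ina (4.70) without Glu_positive_5160 and Htr1d (3.04) and Mmp24 (2.39) without Glu_positive_5254. In limma voom Htr1d, Mmp24 and Ina missed the threshold as well. With 1 negative library fewer it was missed by Serpina1b (5.17), Htr1d (5.50), Mmp24 (5.13) and Ina (6.72) without Glu_negative_4665 and Serpina1b (5.31), Htr1d (5.88), Mmp24 (5.62) and Ina (6.81) without Glu_negative_5254.

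Il1b, Il1rn, Cxcl2 and Il1a, genes of interleukin and chemokine signalling, were among the 10 largest falls at the same average level, immunoglobulin and T cell receptor segments left out. Il1b stood at 1.42, 5.51 and 3.34 CPM in the positive libraries and 30.3 and 51.7 CPM in the negative ones, a change of -3.62 ± 0.64. Its natural antagonist Il1rn stood at 4.27, 10.7 and 9.41 CPM, against 27.5 and 168 CPM (-3.61 ± 0.69), the neutrophil-attracting chemokine Cxcl2 at 1.14, 5.86 and 9.10 CPM, against 32.9 and 103 CPM (-3.69 ± 0.79) and Il1a at 0.427, 5.17 and 2.73 CPM, against 7.56 and 67.00 CPM (-3.82 ± 0.93). Il1rn, Cxcl2 and Il1a were higher in Glu_negative_5254 than in Glu_negative_4665. Pla2g7, which breaks down platelet-activating factor, stood at 0.570, 0.689 and 2.43 CPM, against 3.64 and 39.4 CPM (-4.16 ± 0.93), with most of its signal in Glu_negative_5254. The class I histocompatibility gene H2-Q1, one of several near-identical copies, stood at 1.57, 0.344 and 1.21 CPM, against 11.9 and 19.2 CPM (-3.77 ± 0.76). Alpha-fetoprotein, Afp, stood at 1.96 and 17.03 CPM in the negatives and was 51.5-fold lower in the positives (95% exact counting interval 13.9 to 432), on 2 counts in the positives together. The average log2 CPM of Afp, 8.61, came mainly from the Neurod1-cre-eYFP libraries, through which it passed the level filter. Afp, Pla2g7 and Il1a lost their calls in limma voom and in the fit to the Glu libraries alone. The threshold was missed by Il1rn (-1.79), Cxcl2 (-2.68), Il1a (-1.55), Pla2g7 (-1.62), H2-Q1 (-3.36) and Afp (-3.39) without Glu_negative_5254.

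Part of the immune cell markers fell in the positive cells, with the largest share in the myeloid list. Of 12 genes of B and plasma cells 6 fell and none rose (1 without Glu_negative_4665 and 6 without Glu_negative_5254), with a median of -3.15 and a summed level of 1994 to 7841 CPM in the positive and 22769 to 129304 CPM in the negative libraries. The immunoglobulin alpha constant gene Igha stood at 1228, 4647 and 3806 CPM in the positive libraries and 86886 and 11713 CPM in the negative ones, a change of -3.93 ± 0.67, the kappa constant gene Igkc changed by -3.67 ± 0.61 and the joining chain Jchain by -3.51 ± 0.63. Glu_negative_4665 held several times more of each than Glu_negative_5254, and without it the changes were -1.89 for Igha, which did not pass, -2.38 for Igkc, which passed, and -2.40 for Jchain, which did not. Of 15 tested myeloid genes 10 fell and none rose (6 without Glu_negative_4665 and 5 without Glu_negative_5254), with a median of -2.62 and a summed level of 519 to 649 CPM in the positive and 3064 to 3326 CPM in the negative libraries. The integrin Itgax stood at 1.71, 5.51 and 3.03 CPM, against 33.1 and 72.97 CPM (-3.99 ± 0.68), the Fc receptor chain Fcer1g at 6.12, 9.30 and 4.85 CPM, against 69.3 and 104 CPM (-3.68 ± 0.72) and the invariant chain Cd74, which escorts class II histocompatibility molecules, at 357, 301 and 243 CPM, against 1764 and 1683 CPM (-2.52 ± 0.34). Class II genes H2-Aa (-2.57 ± 0.43) and H2-Ab1 (-2.62 ± 0.38) fell as well. Cd74 alone took a large part of the summed myeloid level in all 5 libraries, so that sum mostly does not reflect Itgax or Fcer1g. Fcer1g was at -3.36 and did not pass without Glu_negative_5254. T and NK cell genes were less uniform. Of 21 tested 5 fell and none rose (4 without Glu_negative_4665 and 3 without Glu_negative_5254), with a median of -1.96. Cd8a stood at 5.70, 15.8 and 11.2 CPM, against 122 and 94.2 CPM (-3.33 ± 0.59). The chemokine Ccl5 stood at 4.70, 19.3 and 16.99 CPM, against 149 and 166 CPM (-3.55 ± 0.61). The granzyme Gzmb stood at 6.55, 13.8 and 11.2 CPM, against 96.6 and 121 CPM (-3.38 ± 0.64). The summed level was 528 to 2390.2 CPM in the positive and 2002 to 2014 CPM in the negative libraries, so the groups overlapped. The highest T and NK cell sum was that of Glu_positive_5254, where Cd4 was at 923 CPM, Cd3e at 544 and the leukocyte gene Ptprc at 449.6, against 114 and 72.3, 124 and 111, and 68.2 and 95.4 CPM in the other positives. In the negatives they stood at 100.4 and 121, 388 and 359, and 281 and 267 CPM. These 3 genes, named after their values were seen, did not pass, and the change of Cd4 was 1.74 ± 0.78 with all libraries and -0.24 without Glu_positive_5254.

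Trpm5, Alox5ap and Alox5 of the tuft cell list fell, and the absorptive cell lists held genes that rose and genes that fell. Of 12 tested tuft genes 3 fell and none rose (0 without Glu_negative_4665 and 1 without Glu_negative_5254), with a median of -2.50 and a summed level of 21.6 to 114 CPM in the positive and 159 to 192 CPM in the negative libraries. The taste-pathway channel Trpm5 stood at 1.14, 2.41 and 1.52 CPM in the positive libraries and 19.9 and 18.8 CPM in the negative ones, a change of -3.53 ± 0.76. The leukotriene gene Alox5ap fell too, at 0.570, 0.344 and 0.607 CPM, against 6.72 and 11.5 CPM (-4.06 ± 1.04). Its partner enzyme Alox5 was 33.4-fold lower in the positives (95% exact counting interval 8.85 to 282), on 2 counts in the positives together. Without Glu_negative_4665 Trpm5 (-3.49), Alox5ap (-4.37) and Alox5 (-5.12) missed the threshold, as did Alox5ap (-3.61) and Alox5 (-4.73) without Glu_negative_5254 and Alox5ap (-3.86) without Glu_positive_5160. Of 16 brush border genes 2 rose and 2 fell, beside 4.22% and 2.41% of all tested genes, with a median of -0.44. Sucrase-isomaltase, Sis, was higher at 2606, 2590.3 and 3582 CPM, against 534 and 897 CPM (2.03 ± 0.46), as was the incretin-cleaving peptidase Dpp4 at 336, 261 and 389.6 CPM, against 96.2 and 115 CPM (1.64 ± 0.43). Intestinal alkaline phosphatase, Alpi, was lower at 90.6, 115 and 47.3 CPM, against 266 and 372 CPM (-1.92 ± 0.51), and so was trehalase, Treh (-2.83 ± 0.82). Slc6a19, which carries neutral amino acids, rose to 147, 91.3 and 245 CPM, against 27.03 and 25.4 CPM (2.62 ± 0.49), and the peptide transporter Slc15a1 by 1.62 ± 0.46, the 2 called genes among 14 tested transporters. Of 16 fat absorption genes 4 fell, beside 2.41% of all tested genes, and none rose, with a median of -0.64. Apolipoprotein Apoa1 stood at 197, 286 and 166 CPM, against 663 and 863 CPM (-1.82 ± 0.41), the fatty acid binding protein Fabp1 at 245, 115 and 77.97 CPM, against 513 and 494 CPM (-1.78 ± 0.47) and the triglyceride-making enzyme Dgat1 at 13.2, 18.6 and 11.2 CPM, against 55.6 and 95.3 CPM (-2.39 ± 0.43), with Apoa4 at -1.98 ± 0.57. All 5 libraries thus held transcripts of absorptive cells, some higher and some lower in the positives. In these lists the threshold was missed by Alpi (-1.97), Treh (-3.21) and Apoa4 (-2.03) without Glu_positive_4665, Treh (-2.68) and Fabp1 (-1.59) without Glu_positive_5160 and Alpi (-1.63), Treh (-2.64), Fabp1 (-1.48) and Apoa4 (-1.64) without Glu_positive_5254. With 1 negative library fewer, in these lists, it was missed by Sis (1.71), Dpp4 (1.52), Alpi (-2.13), Treh (-2.23), Slc6a19 (2.67), Slc15a1 (1.31), Apoa1 (-1.996), Fabp1 (-1.71) and Apoa4 (-1.94) without Glu_negative_4665 and Dpp4 (1.78), Alpi (-1.66), Treh (-3.22), Slc6a19 (2.57), Slc15a1 (2.005), Apoa1 (-1.62), Fabp1 (-1.77), Dgat1 (-1.96) and Apoa4 (-1.997) without Glu_negative_5254.

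The other lists showed few or no calls. Of 9 tested goblet cell genes the mucus protein gene Fcgbp fell (-1.34 ± 0.36), though not without any 1 of Glu_positive_4665 (-1.17), Glu_positive_5160 (-1.19), Glu_negative_4665 (-1.51) and Glu_negative_5254 (-1.17). The list had a median of -1.34. None of 8 Paneth cell genes passed (median -1.36), and none of 16 stromal and endothelial genes (-1.35), 11 stem cell genes (0.76) or 18 proliferation genes (0.28). None of 20 genes of the unfolded protein response passed, with a median of -0.03, nor did any of 16 ribosomal (-0.31), 12 mitochondrially encoded (0.77) or 13 immediate early genes (-0.27). Of 2 tested genes of enteric neurons and glia, the receptor tyrosine kinase Ret rose, at 75.5, 109 and 86.8 CPM, against 21.99 and 17.9 CPM (2.18 ± 0.48), but not without Glu_negative_4665 (2.33) or Glu_negative_5254 (2.03). The neuronal peptide gene Vip and the glial genes Sox10, S100b and Gfap had 0 counts in all 5 libraries. Of 6 pancreatic acinar genes the elastase gene Cela1 was tested and did not pass, at 7.41, 6.20 and 8.19 CPM, against 8.96 and 6.85 CPM. Cpa1, Pnlip and Amy2a5 were at 0 counts in all 5 libraries, Ctrb1 had 3 counts in Glu_negative_4665 and Prss2 1 count in Glu_negative_5254, with 0 in the others. The part of immune, tuft and absorptive cells of the sorted gates in the gene changes above was not tested.

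**Figure D4:**
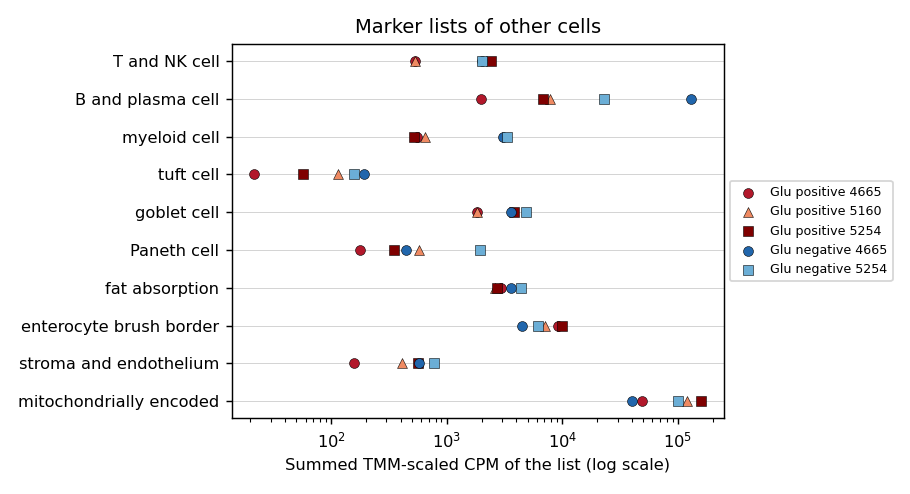
Summed TMM-scaled CPM of 10 marker lists on a log axis, 1 point per library. Myeloid genes sum to 519 to 649 CPM in the positive and 3064 to 3326 CPM in the negative libraries, with Cd74 a large part of each sum. T and NK cell genes of Glu_positive_5254 lie beyond the negatives, and mitochondrially encoded genes overlap.

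The genes that rose were not equally high in the 3 positive libraries. Over the 598 genes that rose and separated, the highest positive library was 2.68-fold above the lowest at the median. The spread was under 2-fold for 167 genes and over 10-fold for 60. Glu_positive_5254 was the highest library for 332 of them (55.5%), Glu_positive_4665 for 169 (28.3%) and Glu_positive_5160 for 97 (16.2%). Over all tested genes these shares were 35.6%, 34.9% and 29.5%. A gene at least 4-fold above both other positives was found 34 times in Glu_positive_5254, 12 times in Glu_positive_4665 and 2 times in Glu_positive_5160. Ffar1, Scn9a, Rgs17, Adcy1, Htr1d and Mmp24 belonged to the first, and Gip, Ucn3 and Casr to the second. Among genes that rose with an average log2 CPM of at least 4 in the 11 libraries, clone names and immunoglobulin or T cell receptor segments left out, the largest ratios of highest to lowest positive were those of Htr1d, Ina, Mmp24, Tsr3 and Ucn3. Tsr3, which acts in ribosome maturation, stood at 9.68, 35.5 and 282 CPM, against 9.24 and 9.07 CPM, with Glu_positive_4665 close to both negatives, and without Glu_positive_5254 its change was 1.29 and did not pass. It also missed the threshold without Glu_negative_4665 (3.54) and without Glu_negative_5254 (3.51). At the even end stood Scg2, Gpr119, Gpr22 and the calcium-activated phosphodiesterase Pde1c, at 46.1, 32.4 and 41.6 CPM, against 6.16 and 4.64 CPM. Glu_positive_5254 was also the positive library with the Cd4, Cd3e and Ptprc signal, whose part in its high genes was not tested.

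**Figure D5:**
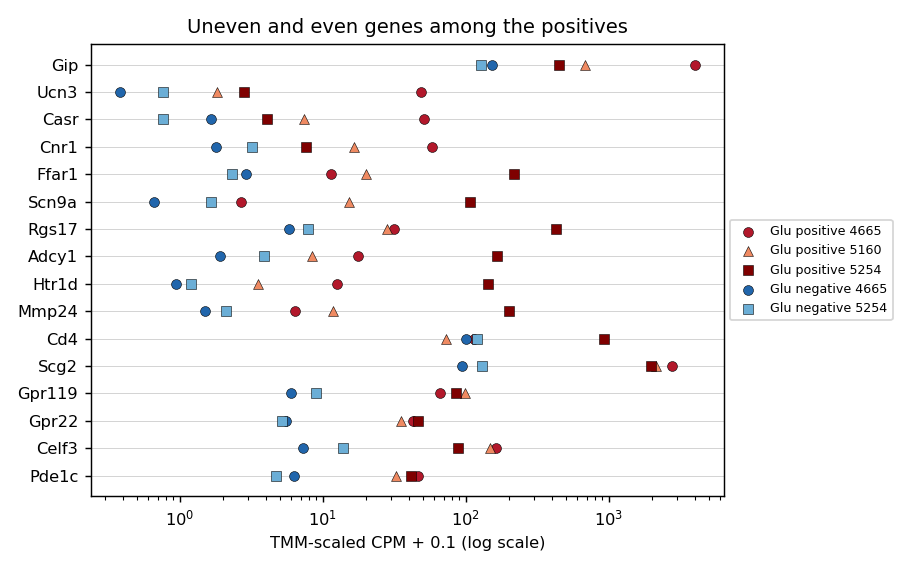
TMM-scaled CPM plus 0.1 on a log axis for 16 genes, 1 point per library. Gip, Ucn3, Casr and Cnr1 are highest in Glu_positive_4665 (circle), Ffar1 to Cd4 in Glu_positive_5254 (square), and the last 5 genes are close together in the 3 positives, as for Gpr22 at 42.9, 35.1 and 46.1 CPM.

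The positive against negative change was last set against the same change in the Neurod1-cre-eYFP strain, in the same fit, to see where the Glu sort differs. The difference passed for 16 of 14332 genes (0.112%). Among hormones it passed for Sst, at -4.18 ± 0.61, Tac1, at -6.37 ± 0.97, and Iapp, at -5.97 ± 0.95, and the other 12 hormone genes did not pass. In the Glu cells Sst, Tac1 and Iapp changed by -0.39, -1.35 and -1.02, none of which passed. In the other strain these 3 had log2 fold changes of 3.79, 5.02 and 4.95. None of the granule or exocytosis genes passed the test of the difference, whose median over all genes was 0.20 and over the granule list -0.13. Lmx1a, a transcription factor of serotonin-producing endocrine cells, and the incretin receptor Glp1r were the members of the other lists of endocrine genes that passed it, and are named after their values were seen. Lmx1a stood at 0.427, 0.344 and 0.607 CPM, against 0.700 and 1.11 CPM, a change of -0.90 ± 0.73 here and a difference of -5.88 ± 0.89. Glp1r stood at 0.285, 1.38 and 3.94 CPM, against 16.7 and 5.31 CPM, a change of -2.65 ± 0.79 that did not pass, and a difference of -6.35 ± 1.07. The 2 contrasts share no library. Strain, reporter and, in most libraries, the counts of mt-Rnr1 and mt-Rnr2 differ between them together and cannot be told apart. Levels in the negative cells of either strain also enter the difference. The difference of Tac1 rests on Glu_negative_4665, without which it was -3.38 and did not pass. That of Iapp did not pass without Glu_negative_4665 (-6.00) or Glu_negative_5254 (-5.94), nor did that of Lmx1a (-6.18 and -5.56), and that of Glp1r did not without Glu_negative_4665 (-5.31). That of Sst passed without any 1 of the 5 Glu libraries.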

How the data were processed

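Sorted duodenal epithelial cells were profiled with an amplifying library kit, per the labels' protocols. TopHat2 2.1.0, Cufflinks 2.2.1, CASAVA and the GRCm38 build are named in the submitters' processing notes, and the sources used here do not give the annotation release or the use of strand. The deposited table holds the authors' expected counts (estimated counts, 1 column per library), which were not whole in 848 of 38283 genes, and these were rounded to whole counts. Reads may be shared between near-identical copies, overlapping genes and antisense partners. All 5 Glu libraries list mt-Rnr1 and mt-Rnr2, the mitochondrial ribosomal genes, at 0, as does NeuroD1_negative_6360. These genes took 27.5% to 33.9% of the counts of the other 5 Neurod1-cre-eYFP libraries, which also enter the spread and the difference between strains. With both left out, 556 genes were higher and 388 lower. Whether other steps of the counting differed between libraries was not tested.

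Symbols for 36341 genes came from GENCODE vM21 (GRCm38). edgeR 4.0.16 under R 4.3.3 fitted 4 group means over all 11 libraries with filterByExpr, TMM scaling and the quasi-likelihood test, without a block, and p-values were adjusted by the Benjamini-Hochberg method over 14332 genes. The SE is the size of the log2 fold change divided by the square root of F. The fit was also run on simulated counts, with the same means in all 4 groups apart from genes set to change in Glu positive. That setting is unlike these data, so the run is no measure of the calls made here. Replicate pairs of the Glu groups differed by more than sampling noise (56.5 to 93.8 chi-square units per degree of freedom) and were kept apart. The totals of 2695065 to 5696425 counts limit the precision of low genes, and counting intervals (exact, 95%) and floors of 3 counts cover counting error only.

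The members, the 30 gene lists (499 genes), the tests and the naming rule were chosen with earlier results of these data known. The rule named Gcg, Cck, Scg2 and Adgrg4, all hormone genes, up to 4 called and separated members of each other list by size of change with up to 2 in the rarer direction, and 10 genes each way with the largest change and 5 with the largest spread among positives. The last 2 kinds were taken only from genes with an average log2 CPM of at least 4 over the 11 libraries, and not from clone or predicted-gene names, mitochondrial genes or immunoglobulin and T cell receptor segments. Genes low in the Glu libraries, such as Ina and Afp, could thus enter through the Neurod1-cre-eYFP libraries. A few list members are not reported here, though counts and medians hold them. Other list members that passed were named in addition, and Cd4, Cd3e, Ptprc, Neurog3, Cela1, Lmx1a and Glp1r after their values were seen. Alternatives were other scalings and filters, the Glu libraries alone, limma 3.58.1 voom, DESeq2 1.42.0, a block, mt-Rnr1 and mt-Rnr2 left out, and each library left out. The same alternatives for the difference between strains were added after seeing the data.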

Additional observations from a re-analysis of the deposited data

Results flagged for a closer look

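The change in Glu cells differed from that in cells sorted by Neurod1-cre-eYFP for 6 named genes, by a test of the difference itself in edgeR. The log2 differences, Glu minus the other strain, were -4.18 for Sst, -6.37 for Tac1, -5.97 for Iapp, -5.88 for Lmx1a and -6.35 for Glp1r. That of Afp was -12.15, a fitted value that rests on 2 counts in the Glu positive libraries and is no bound. Lmx1a and Glp1r were singled out after their values were seen.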

How the results depend on the processing

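Over 158 named genes, 4 of 2358 values under the alternatives turned sign, all of genes that did not pass. Genes named as higher or lower were chosen for full separation of the libraries, so their sign could hardly turn. Their lack of sign turns is therefore no measure of stability. Without 1 library the change of Cd4 ranged from -0.24 to 2.22 (lowest without Glu_positive_5254), that of Penk from -0.091 to 3.16 (lowest without Glu_negative_5254), that of Sst from -0.94 to 0.46 and that of Tac1 from -2.21 to 1.66, the last 2 highest without Glu_negative_4665. The main counts of 605 higher and 346 lower genes became 964 and 587 with no filter and 954 and 560 in DESeq2. They became 195 and 145 in the fit to the Glu libraries alone, which tested 13249 genes and left the other strain out of the spread. With library totals 360 were higher. Leaving out 1 library gave 108 to 818 higher and 79 to 369 lower genes. The cause of these moves was not tested.

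Of the 146 named genes that passed, 2 lost the call in DESeq2, 3 with RLE scaling, 15 with library totals, 32 in limma voom, 22 with the replicate block, 50 of 143 tested in the fit to the Glu libraries alone, 80 without Glu_negative_4665 and 75 without Glu_negative_5254. Calls lost in limma voom or in the fit to the Glu libraries alone are marked above for only some of these genes. In limma voom the differences between strains of Iapp (-5.97), Tac1 (-5.56) and Lmx1a (-5.61) did not pass. Without 1 library the differences ranged from -6.89 to -5.33 for Iapp, -7.25 to -3.38 for Tac1, -6.18 to -5.56 for Lmx1a and -7.65 to -5.31 for Glp1r, while Sst and Afp passed under every alternative run.

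Same-numbered deviations from the group mean correlated at 0.040 and 0.042 in the Glu groups. With 2 negative libraries their deviations mirror each other, so these values cannot decide whether the numbers pair the samples. With the number as a replicate block 512 genes were higher and 195 lower, and the differences of Tac1 (-5.54) and Glp1r (-6.44) did not pass. Depth limits genes with few counts in the negatives, such as Sstr3 and Kcnj11.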

Other observations

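Transcripts of the 12 mitochondrially encoded genes of the list summed to 48364, 119249 and 159053 CPM in the positive libraries and 40150.0 and 99962 CPM in the negative ones. The sums overlapped between the groups, and Glu_positive_4665 and Glu_negative_4665 were the lowest of their groups.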
